A study of Homo sapiens with 14 samples.

Results

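The 9 genes CCN1, CCN2, ANKRD1, AMOTL2, AJUBA, LATS2, TEAD1, YAP1 and WWTR1 encode YAP-TEAD factors and genes widely used as their targets. Each was taken by its gene symbol in the array annotation, where CCN1 and CCN2 are also known as CYR61 and CTGF. They are 9 of the 18377 genes named by a single-symbol transcript cluster, the set of probes that measures 1 gene. Each was measured by 1 cluster on all 14 arrays. The target genes were measured by clusters 7902687 (CCN1), 8129562 (CCN2), 7934979 (ANKRD1), 8090852 (AMOTL2), 7977854 (AJUBA) and 7970498 (LATS2). The factors were measured by clusters 7938544 (TEAD1), 7943398 (YAP1) and 8091422 (WWTR1).

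YAP, the product of YAP1, and TAZ, the product of WWTR1, are transcription coactivators that do not bind DNA themselves and reach their targets through the TEAD proteins, of which TEAD1 is one. The kinases of the Hippo pathway, among them LATS1 and LATS2, phosphorylate YAP and TAZ and keep them out of the nucleus. YAP and TAZ respond to cell density, the actin cytoskeleton, serum factors and energy supply, so part of their regulation leaves no trace in the mRNA of the factors. CCN1 and CCN2 encode secreted matricellular proteins, ANKRD1 a nuclear and sarcomeric ankyrin repeat protein, AMOTL2 a junctional protein that holds YAP in the cytoplasm, and AJUBA a LIM domain scaffold that binds LATS kinases. AMOTL2 and LATS2 are thus targets that also restrain YAP. In pancreatic ductal adenocarcinoma, YAP is known for supporting tumour growth.

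The arrays were hybridized with RNA of MiaPaCa2, an established human pancreatic cancer cell line. Cells were transfected with a scrambled control siRNA (siCtrl) or with an siRNA against NUPR1, a small stress-induced chromatin protein, or against RELA or RELB, DNA-binding subunits of NF-kB. In the NF-kB set of 6 arrays, siCtrl, siRelA and siRelB cells were kept for 9 h in EBSS or in mock. In the Nupr1 set of 8 arrays, the time course in EBSS was 0, 3, 6 and 9 h, each with siCtrl and with siNupr1. EBSS is a salt solution without amino acids, growth factors or, according to the labels, glucose, and what mock contained is not given in the sources used here. A stated purpose of the study was to find pro-survival genes that depend on Nupr1 and on RelB rather than RelA during nutrient deprivation. Each combination of siRNA and condition was measured on 1 array, and nothing in the labels says that arrays came from separate cultures, so p-values measure only the spread between these arrays, which may be technical. The labels list more than 1 siRNA sequence for NUPR1 and for RELB and do not say which these arrays used.

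Some labels leave doubt. The siNupr1 array at 9 h carries another siRNA abbreviation in its title, while its source and description give siNupr1. Titles of both 0 h arrays name DMEM, a culture medium, but their source field gives EBSS with a time of 0 h. The silenced genes were lower under their own siRNA, with differences of -0.87 for NUPR1, -2.49 for RELA and -1.32 for RELB on the log2 scale (limma adjusted p of 1.95e-05, 2.96e-10 and 3.62e-05). RELB was also lower with siNupr1 (-0.67, limma adjusted p = 0.000945), and NUPR1 was lower with siRelB (-0.435, adjusted p = 0.0442). RELA was not called with siNupr1 or siRelB, nor were NUPR1 and RELB with siRelA. Array medians lay between 5.67 and 5.84. All 5 markers of the line (KRT8, KRT18, KRT19, VIM and MET) stood above the level of the filter on dim genes (5.805 on the log2 scale) on every array, and 0 of 4 measured leukocyte markers and 0 of 4 endothelial markers did so on every array. CD14 stood above it on 11 of 14 arrays, LYZ on 5 and CDH5 on 2, none higher than 6.27, and the defining markers PTPRC, CD3E and PECAM1 were below it on all. Of 6 fibroblast markers, DCN, LUM and PDGFRB were below that level on all arrays and the collagens COL1A1, COL1A2 and COL3A1 above it. COL1A2 was lower in EBSS than in mock (-0.91) and than at 0 h (-0.73, -0.67 and -0.96 at 3, 6 and 9 h), higher with siRelA (0.44) and lower with siRelB than with siRelA (-0.65), all called in limma. COL1A1 and COL3A1 were not called in these comparisons (0.23 and -0.10 in EBSS against mock). The part of these collagens in the values of the target genes was not tested. In such bulk RNA, fewer expressing cells and less RNA per cell cannot be told apart.

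TEAD proteins bind the sequence GGAATG, and its occurrence in the members' promoters is shown as a description of sequence, for targets and factors alike. The window read was the 250 bases before a transcription start in RefSeq (GRCh38.p14), and 7 of the 9 members had a window there, with 10 windows among them. CCN1 and TEAD1 had no window, so their promoters were not searched. The windows of CCN2 and ANKRD1 are printed as those with the most matches, and that of AMOTL2 because the gene was called in both sets. AMOTL2 had a further window, and so did AJUBA, each with 0 matches. The sequences run 5′ to 3′ on the strand of the gene, and capitals mark GGAATG or its reverse complement CATTCC.

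CCN2 promoter, chr6:131951373-131951622, minus strand: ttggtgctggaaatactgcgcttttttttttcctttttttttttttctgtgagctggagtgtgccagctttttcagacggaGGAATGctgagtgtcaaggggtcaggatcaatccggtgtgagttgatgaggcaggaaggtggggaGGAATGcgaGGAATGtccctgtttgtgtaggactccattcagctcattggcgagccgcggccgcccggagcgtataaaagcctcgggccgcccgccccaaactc
ANKRD1 promoter, chr10:90921088-90921337, minus strand: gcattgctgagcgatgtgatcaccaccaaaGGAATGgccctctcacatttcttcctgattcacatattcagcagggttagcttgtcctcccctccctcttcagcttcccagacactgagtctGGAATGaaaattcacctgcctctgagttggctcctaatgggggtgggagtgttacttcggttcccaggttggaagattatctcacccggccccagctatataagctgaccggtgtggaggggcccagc
AMOTL2 promoter, chr3:134374448-134374697, minus strand: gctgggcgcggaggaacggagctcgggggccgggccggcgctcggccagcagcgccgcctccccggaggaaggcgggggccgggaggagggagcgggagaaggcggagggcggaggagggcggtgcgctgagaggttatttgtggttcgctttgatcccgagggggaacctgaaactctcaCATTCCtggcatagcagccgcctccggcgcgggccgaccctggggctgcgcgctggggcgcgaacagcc

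The CCN2 window held 3 matches, which began 169, 104 and 95 bases before the start. ANKRD1 had 2, at 220 and 128 bases, and AMOTL2 had 1 on the opposite strand at 69 bases. AJUBA (59 bases) and YAP1 (162 bases) had 1 match each, and the windows of LATS2 and WWTR1 had none. At least 1 match stood in 11.9% of the 35116 windows of this length, at least 2 in 0.94% and at least 3 in 0.0826%. A match is a description of letters, not of binding, and distal sites were outside these windows.

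Levels below are the deposited log2 values, and differences are on the same scale, where 1 is a doubling. All were tested in 1 limma fit of set, siRNA and condition over 11026 genes, and called means an adjusted p (Benjamini-Hochberg) under 0.05. Of the 9 members, 8 entered the tests. ANKRD1 was left out because it was dim, at 4.05 to 4.59 on the 14 arrays, below the filter level on each of them. Its pairs of arrays differed by -0.02 to 0.30 in EBSS against mock and by 0.12 and 0.14 at 9 h against 0 h. Its promoter is among those printed above, but its course could not be followed at this signal.

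During the Nupr1-set starvation course, CCN1 was higher at each of the 3 times, AMOTL2 was higher at 3 h and then lower again at 9 h than at 3 h, and AJUBA was higher at 9 h. The mRNAs of the factors were not called at any time. CCN1 stood at 7.69 in siCtrl cells at 0 h and at 9.69, 8.81 and 9.17 after 3, 6 and 9 h. In siNupr1 cells the levels were 8.09 at 0 h and 8.88, 8.53 and 8.71 later. All 6 starved arrays lay above both 0 h arrays, and 3 h was the highest time under either siRNA. The difference from 0 h was 1.39 ± 0.20 (SE, 2 pairs, 2.63-fold) at 3 h, 0.78 ± 0.20 at 6 h and 1.06 ± 0.20 at 9 h, with limma adjusted p of 0.000131, 0.00702 and 0.000595. The 6 h call was lost without the siCtrl array at 0 h or at 6 h (adjusted p up to 0.301), while those at 3 h and 9 h stood without any single array. Without the siCtrl array at 0 h the values were 0.33 at 6 h and 0.60 at 9 h, and without the siNupr1 array at 0 h the 6 h value was 1.24. These time points share their 0 h arrays, so they are not separate evidence.

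AMOTL2 measured 8.53, 9.66, 8.99 and 8.87 in siCtrl cells from 0 h to 9 h. Under siNupr1 the levels were 8.49, 8.71, 8.57 and 8.13. The peak at 3 h was thus 1.13 above 0 h in siCtrl cells and 0.22 in siNupr1 cells, and the last siNupr1 array was below its own 0 h array. The 3 h difference was 0.67 ± 0.16 (2 pairs, limma adjusted p = 0.0107), and the later decline from 3 h to 9 h was -0.69 ± 0.16 (adjusted p = 0.0152). The 3 h call did not stand without the siCtrl array at 0 h (0.34) or at 3 h (0.40), with adjusted p up to 0.314. Nor did the decline stand without the siCtrl array at 3 h (-0.41) or the siNupr1 array at 9 h (adjusted p up to 0.364). At 9 h against 0 h the estimate was -0.01 with a 95% interval from -0.36 to 0.33.

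AJUBA rose in both siRNA pairs by 9 h, from 6.88 to 7.42 in siCtrl cells and from 7.20 to 7.50 in siNupr1 cells. The difference of 0.42 ± 0.15 was just past the threshold (limma adjusted p = 0.0461) and kept its call in 6 of 14 fits that each left out 1 array. CCN2 was at 6.36 in both 0 h arrays and at 6.60 to 6.77 in the 4 arrays of 3 and 6 h, which lay above them, yet its differences of 0.28 and 0.32 were not called (adjusted p of 0.16 and 0.0721). The 6 h value was called with quantile normalization (0.0385) and median centring (0.0451). By 9 h CCN2 was at 6.40 and 6.45. LATS2 was 0.69, 0.46 and 0.54 above 0 h in the siCtrl arrays and 0.13, 0.11 and 0.04 above it in the siNupr1 arrays, and none of its times was called (limma adjusted p from 0.0787 to 0.183). The 3 fitted differences, 0.41, 0.28 and 0.29, became 0.64, 0.52 and 0.52 without the siNupr1 array at 0 h, all called, and 0.17, 0.05 and 0.05 without the siCtrl array at 0 h. The 3 h value was also called with quantile normalization, with array weights and with the span curve described below (adjusted p of 0.0311, 0.0303 and 0.0247).

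TEAD1 ranged over 0.38 across the 8 arrays of this set, from 8.44 to 8.82, and YAP1 over 0.27, from 9.02 to 9.29. WWTR1 lay between 10.28 and 10.68. Against 0 h, the estimates for these 3 genes were between -0.14 and 0.22 at all times. The intervals leave room for modest shifts: for TEAD1 at 9 h, the 95% interval ran from -0.06 to 0.49. At 3 h, 2 of 8 members were called, both higher, beside 12.3% of all tested genes (3.27% higher and 9.07% lower). At 6 h it was 1 of 8, higher, beside 23.4% (7.65% higher and 15.7% lower), and at 9 h 2 of 8, both higher, beside 24.3% (9.19% higher and 15.1% lower). Between 9 h and 3 h, 1 of 8 was called, lower, beside 7.34% (4.68% higher and 2.66% lower). At 6 h and 9 h the share of members called was near or below the background in either direction combined, and each count rests on 1 or 2 genes. The background itself moved with single arrays: it was 3.23% at 3 h without the siNupr1 array at 3 h, 7.46% at 6 h without the siCtrl array at 6 h, and 1.06% for 9 h against 3 h without the siCtrl array at 3 h. The median member difference was 0.25, 0.27 and 0.14 at 3, 6 and 9 h, beside -0.03, -0.01 and -0.04 over all tested genes.

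**Figure D1:**
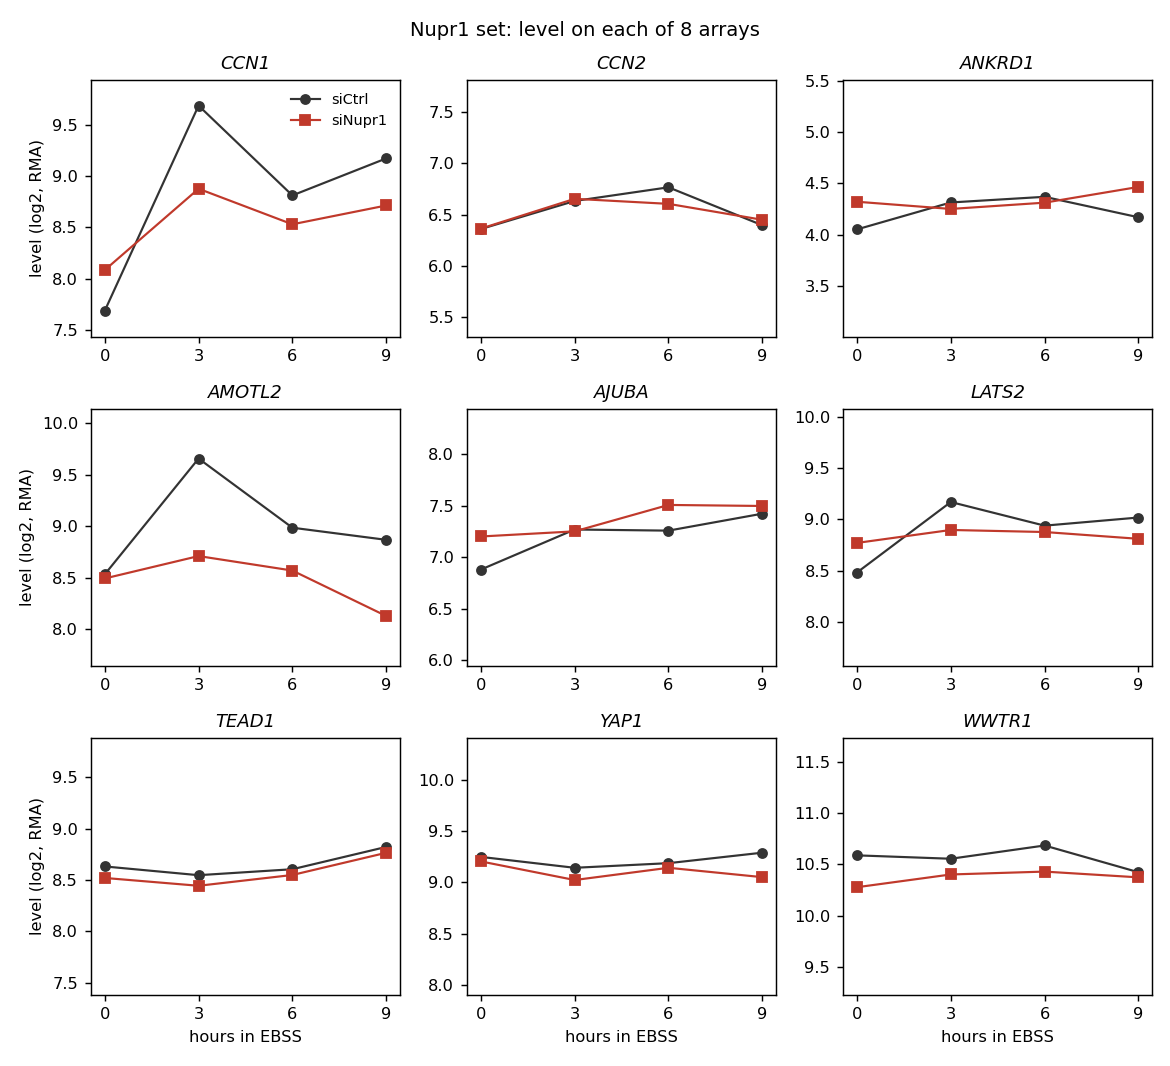
Log2 level of each of the 9 genes (vertical axes) against hours in EBSS (horizontal axes) in the Nupr1 set, 1 array per point, siCtrl as black circles and siNupr1 as red squares. CCN1 rises from 7.69 to 9.69 in siCtrl cells at 3 h and from 8.09 to 8.88 in siNupr1 cells, AMOTL2 peaks at 3 h, and TEAD1, YAP1 and WWTR1 move little.

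In the plot of levels over hours in EBSS, the siCtrl line of AMOTL2 lies above the siNupr1 line after 0 h, and the CCN1 lines cross between 0 h and 3 h. ANKRD1 is drawn there on its own axis, at levels too dim to read a course from.

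At 9 h in the NF-kB set, EBSS cells had more CCN1, CCN2 and AMOTL2 mRNA and less TEAD1, YAP1 and WWTR1 mRNA than mock cells. The WWTR1 call was near the threshold and was lost in several settings given below. CCN1 in EBSS and in mock measured 9.15 and 7.96 with siCtrl, 9.65 and 9.10 with siRelA, and 8.84 and 7.58 with siRelB. EBSS was the higher in all 3 pairs, although the siRelA mock array overlapped the EBSS range. The difference was 0.999 ± 0.161 (3 pairs, 2-fold, limma adjusted p = 4.01e-05). CCN2 was 6.95, 6.999 and 6.83 in EBSS against 6.52, 6.68 and 6.27 in mock, without overlap, a difference of 0.44 ± 0.10 (adjusted p = 0.00176). It was the dimmest of the tested members, with a mean of 6.605 over all arrays beside the filter level of 5.805. AMOTL2 was 8.27, 8.34 and 7.70 in EBSS against 7.60, 8.10 and 7.10 in mock, higher in all 3 pairs by 0.51 ± 0.13 (limma adjusted p = 0.00425), with siRelB EBSS below siRelA mock. These calls stood when any single array was left out.

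AJUBA was 0.68 higher in EBSS in siCtrl cells and 0.01 and 0.08 higher under siRelA and siRelB. Its fitted difference of 0.26 ± 0.12 was not called (limma adjusted p = 0.0821). It was 0.04 without either siCtrl array and 0.38, then called, without either siRelA array, and was called with quantile normalization (0.34, adjusted p = 0.0263). For LATS2, the siCtrl and siRelB pairs differed by 0.36 and 0.20 and the siRelA pair by -0.25, and the estimate of 0.10 was not called (adjusted p = 0.483, 95% interval from -0.15 to 0.35).

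**Figure D2:**
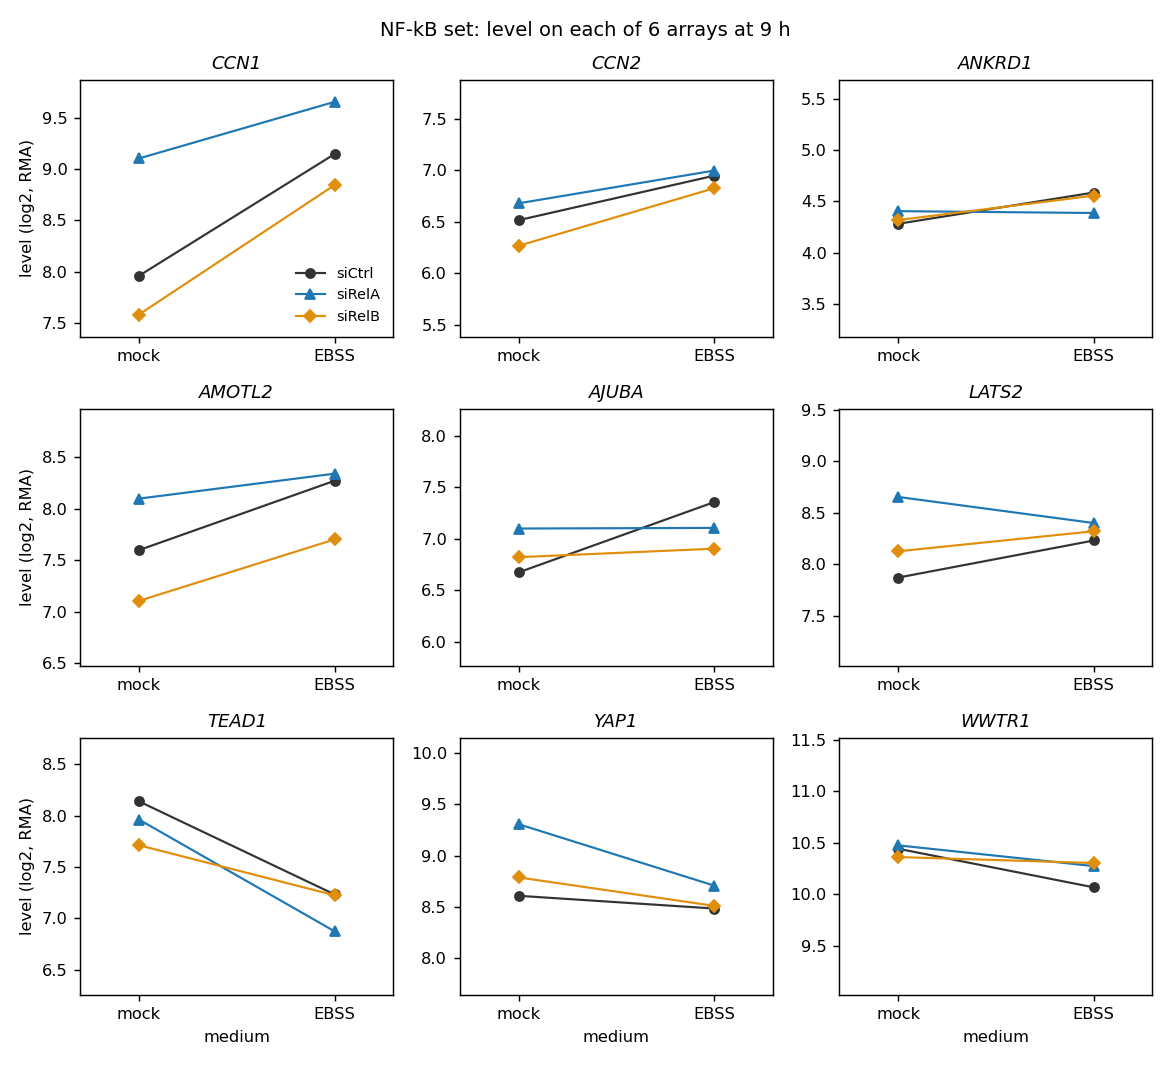
Log2 level of each of the 9 genes (vertical axes) in mock and in EBSS at 9 h (horizontal axes) in the NF-kB set, 1 array per point, with a line for each siRNA. CCN1, CCN2 and AMOTL2 rise from mock to EBSS in all 3 lines, and TEAD1 falls in all 3, from 8.14, 7.96 and 7.71 to 7.23, 6.87 and 7.22.

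TEAD1, the DNA-binding partner, was 7.23, 6.87 and 7.22 in EBSS and 8.14, 7.96 and 7.71 in mock with siCtrl, siRelA and siRelB. All 3 EBSS arrays were below all 3 mock arrays. The difference was -0.83 ± 0.11 (0.564-fold, limma adjusted p = 3.25e-06) and was called without any single array. YAP1 was lower in EBSS in each pair, with differences of -0.12 with siCtrl, -0.60 with siRelA and -0.28 with siRelB, and of -0.33 ± 0.10 in the fit (limma adjusted p = 0.00941). This call was lost without either siRelA array (-0.20, adjusted p up to 0.159). WWTR1 fell by 0.21 ± 0.08 (limma adjusted p = 0.0369), a call that stood in 6 of 14 fits without 1 array and whose value was -0.13 without either siCtrl array. Quantile normalization also took the call away (-0.13, limma adjusted p = 0.189). So did median centring (0.0629), no trend (0.0781), each set alone (0.0547) and no filter (0.0528).

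So 6 of the 8 tested members were called in EBSS against mock, 3 in each direction, where 51.9% of all tested genes were called (22.6% higher and 29.3% lower). The median member difference was 0.18 beside 0.05 over all tested genes. In the lines drawn from mock to EBSS, the targets slope up and the factors slope down, with AJUBA and LATS2 uneven between siRNAs.

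Genomic span moved with this contrast. Over 11017 genes with a known span, the difference of EBSS against mock correlated with span with a Spearman coefficient of -0.42, across genes, which are not independent. The median difference was 0.21 for genes under 10 kb and -0.25 for genes over 100 kb, and 49.7% of the latter were called lower. CCN1 and CCN2 span 3.19 and 3.2 kb, AMOTL2 20.1 kb, and YAP1, WWTR1 and TEAD1 123, 208 and 270 kb. A smooth curve on span was fitted to each array's deviations from its set's mean and subtracted from that array, and the model was fitted again. CCN1 then remained at 0.81 (limma adjusted p = 0.000656), AMOTL2 at 0.48 (0.00485) and TEAD1 at -0.57 (0.000165). CCN2 became 0.25 (adjusted p = 0.0531) and YAP1 -0.08 (adjusted p = 0.459), and WWTR1 changed sign to 0.05 (adjusted p = 0.673). LATS2, of 88.6 kb, became 0.33 and was then called (limma adjusted p = 0.0205). In the Nupr1 set the coefficient was -0.20 at 3 h, -0.13 at 6 h and -0.02 at 9 h against 0 h, 0.18 for 9 h against 3 h and -0.19 for siNupr1.

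**Figure D3:**
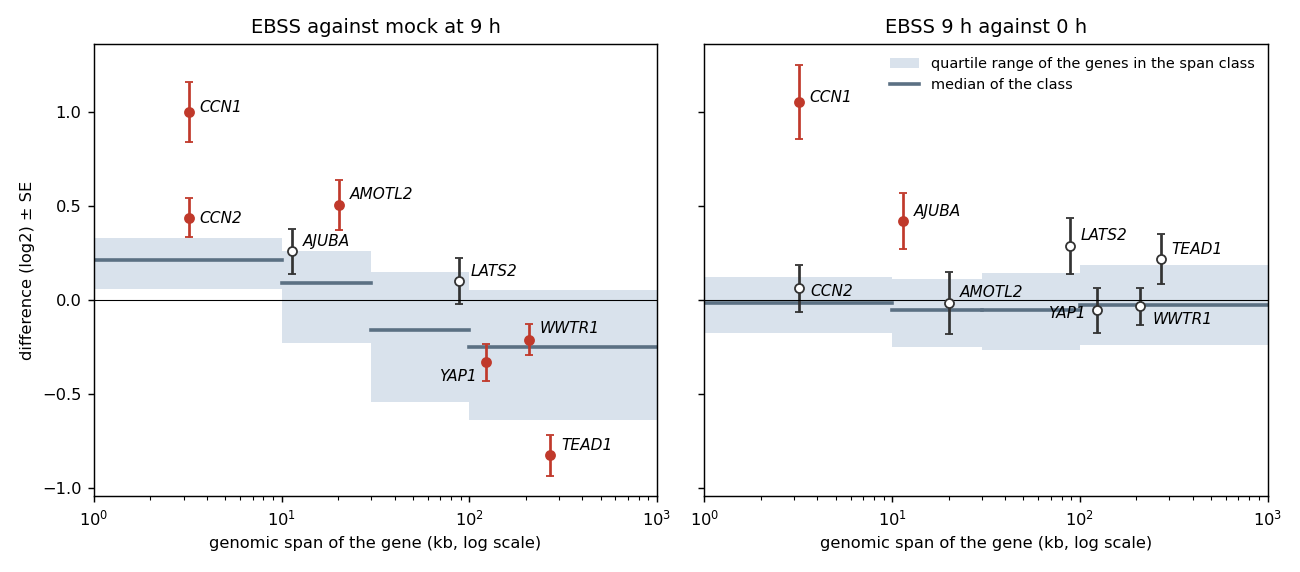
Log2 difference ± SE of the 8 tested genes (vertical axes) against genomic span in kb (log axis) for EBSS against mock and for 9 h against 0 h, with the median line and quartile band of all tested genes in each span class, and filled red points for adjusted p under 0.05. In EBSS against mock the median falls from 0.21 under 10 kb to -0.25 over 100 kb, and TEAD1 lies below the band.

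The plot of differences against span sets each member beside genes of its own length. YAP1 and WWTR1 lie close to the median of long genes, and TEAD1 and CCN1 lie away from their medians.

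The 9 h starvation responses of both sets were compared as a contrast of the same fit. TEAD1 differed, by -1.04 ± 0.17 (limma adjusted p = 0.00016), with -0.83 in EBSS against mock and 0.22 at 9 h against 0 h. It was 1 of 8 members called, lower, beside 24.5% of all tested genes (8.11% higher and 16.4% lower), and its call stood without any single array and after the span curve was subtracted (-0.82, adjusted p = 0.0013). The CCN1 responses of 0.999 and 1.06 differed by -0.06, with a 95% interval from -0.59 to 0.48. For AMOTL2 the difference was 0.52 ± 0.21 (adjusted p = 0.0814) and for CCN2 0.38 ± 0.16 (limma adjusted p = 0.101). The AMOTL2 value was 0.85 and called without the siCtrl array at 0 h (adjusted p = 0.00408) and 0.19 without the siNupr1 array at 0 h. AJUBA, LATS2, YAP1 and WWTR1 gave -0.16, -0.19, -0.28 and -0.18, none called. The sets differ in their unstarved arrays, mock at 9 h or 0 h, and these cannot be told apart from the sets themselves. Even the siCtrl arrays after 9 h in EBSS, which the labels describe alike in both sets, differed for TEAD1, with 7.23 in the NF-kB set and 8.82 in the Nupr1 set. CCN1 was nearly equal on these 2 arrays, at 9.15 and 9.17. The absolute difference between these 2 arrays had a median of 0.39 and a 95th percentile of 1.23 over all tested genes, so the TEAD1 difference of -1.59 was beyond that percentile.

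AMOTL2 was lower with siNupr1, and no other member passed the threshold. Its 4 siNupr1 arrays differed from siCtrl by -0.04 at 0 h and, in starved cells, by -0.95, -0.42 and -0.74 in the order of time, near zero in unstarved cells and lower in each starved pair. The fitted difference was -0.54 ± 0.12 (4 pairs, 0.689-fold, limma adjusted p = 0.00353). Without the siCtrl array or the siNupr1 array at 3 h the adjusted p was up to 0.0585. CCN1 was 0.40 higher with siNupr1 at 0 h and then differed by -0.81, -0.28 and -0.46, for a fitted -0.29 ± 0.14 that was not called (adjusted p = 0.166). It was -0.52 and called when either 0 h array was left out (adjusted p down to 0.00683), -0.54 and called without the doubtful arrays (0.0415), and -0.11 without either 3 h array.

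WWTR1 differed by -0.31, -0.15, -0.25 and -0.05 in the 4 siNupr1 pairs, all lower, and the fitted difference of -0.19 ± 0.07 missed the threshold (limma adjusted p = 0.0666). It was called with quantile normalization (-0.23, adjusted p = 0.0328), with array weights (0.0197) and without either 9 h array (-0.24). The LATS2 pairs, 0.29 at 0 h and -0.27, -0.06 and -0.21 later, had the order of signs seen for CCN1. AJUBA, CCN2, TEAD1 and YAP1 had fitted differences of 0.16, -0.02, -0.08 and -0.11, none called (adjusted p from 0.338 to 0.914). With 1 of 8 members called, lower, beside 18.4% of all tested genes (9.86% higher and 8.58% lower), the share was not above the background, which was 7.62% without the siCtrl array at 3 h.

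The change of sign after 0 h led to a test chosen after these values were seen, of the siNupr1 difference in starved cells less that at 0 h. It was -0.91 ± 0.24 for CCN1, -0.66 ± 0.22 for AMOTL2 and -0.47 ± 0.22 for LATS2, with unadjusted p of 0.000934, 0.00639 and 0.0404 in limma. After adjustment none was called (adjusted p of 0.617, 0.617 and 0.682). Of 11026 genes 0 were called (0%) and 800 had an unadjusted p under 0.05. The test contrasts 1 pair of 0 h arrays with 3 starved pairs, and the medium of those 0 h arrays is the one in doubt. A linear trend of the siNupr1 difference over time likewise called 0 genes (0%), with 2149 at an unadjusted p under 0.05.

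**Figure D4:**
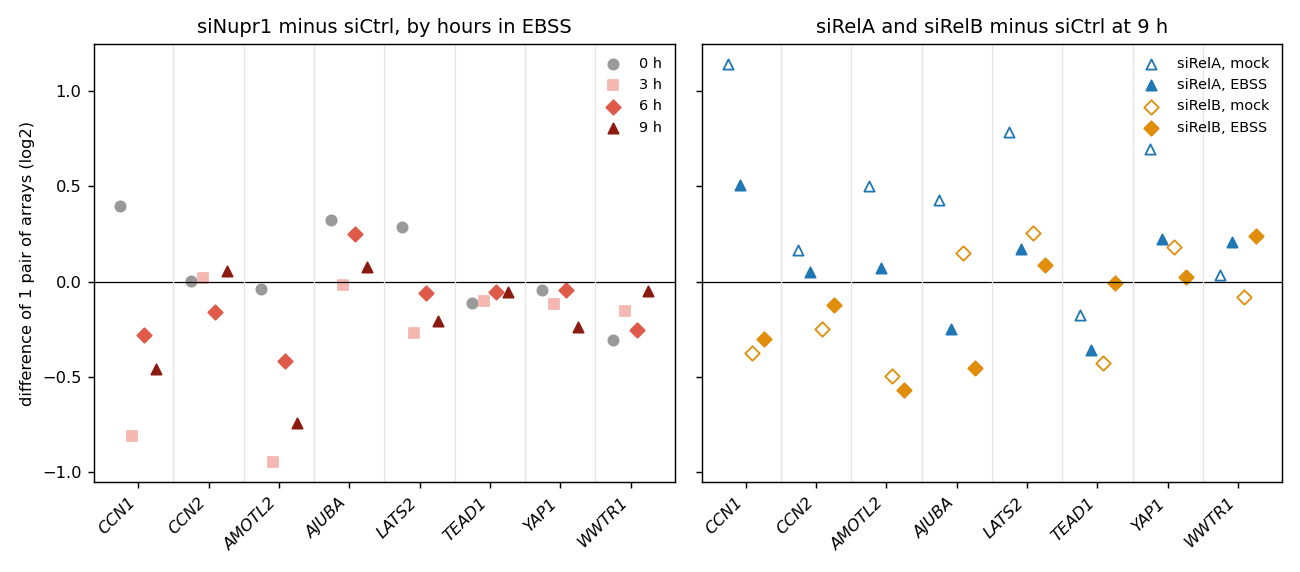
Log2 differences of single pairs of arrays from siCtrl (vertical axes) for the 8 tested genes, with siNupr1 at 0, 3, 6 and 9 h on the left and siRelA and siRelB in mock (open) and EBSS (filled) on the right. AMOTL2 is lower with siNupr1 in the starved pairs (-0.95, -0.42 and -0.74), and CCN1 is higher with siRelA in both media (1.14 and 0.51).

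CCN1, LATS2 and YAP1 were higher with siRelA, and AMOTL2 was lower with siRelB. These comparisons share the siCtrl arrays. With siRelA, CCN1 was 9.65 in EBSS and 9.10 in mock, against 9.15 and 7.96 with siCtrl, a difference of 0.83 ± 0.20 (2 pairs, limma adjusted p = 0.00515). LATS2 was 8.40 and 8.65 with siRelA against 8.23 and 7.87, a difference of 0.48 ± 0.15 (adjusted p = 0.0253). YAP1 was 8.71 and 9.31 against 8.49 and 8.61, a difference of 0.46 ± 0.12 (limma adjusted p = 0.0101). In all 3 genes the mock pair held most of the difference, at 1.14, 0.79 and 0.70, while the EBSS pair gave 0.51, 0.17 and 0.22. Each call was lost without the mock array of siCtrl or of siRelA, with adjusted p up to 0.227 for CCN1, 0.525 for LATS2 and 0.296 for YAP1. Without the siRelA mock array the values were 0.49, 0.21 and 0.26, and without the siCtrl mock array LATS2 was 0.28 and YAP1 0.30. Without the siRelA EBSS array LATS2 was 0.74. A test of the siRelA difference in EBSS less that in mock did not call any member (for CCN1 -0.64 ± 0.37, adjusted p = 0.999), and it called 4 of 11026 genes (0.0363%).

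AMOTL2 differed with siRelB by -0.57 in EBSS and -0.49 in mock, a fitted -0.53 ± 0.16 (limma adjusted p = 0.0316). The call did not stand without any of the 4 arrays of siCtrl and siRelB (adjusted p up to 0.305). CCN1 was lower with siRelB in both media, at -0.30 and -0.38, with a fitted -0.34 ± 0.20 that was not called (adjusted p = 0.284). CCN2 differed by -0.12 and -0.25, also not called (limma adjusted p = 0.376). CCN2 and WWTR1 differed with siRelA by 0.11 and 0.12, neither called. For YAP1, LATS2 and WWTR1 the siRelB differences were 0.10, 0.17 and 0.08, with 95% intervals that all include 0. A test of the siRelB difference in EBSS less that in mock called 0 of 11026 genes (0%), with 401 at an unadjusted p under 0.05.

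Set directly against each other, siRelB cells had less CCN1 than siRelA cells, a difference of -1.16 ± 0.20 (0.446-fold, limma adjusted p = 0.00074), and less AMOTL2, a difference of -0.82 ± 0.16 (adjusted p = 0.00296). The EBSS pairs differed by -0.81 and -0.64 and the mock pairs by -1.52 and -0.99. YAP1 differed by -0.36 ± 0.12 and was not called (limma adjusted p = 0.0691). It was called with quantile normalization (adjusted p = 0.0434), with the span curve (0.0477) and without the siRelA EBSS array (-0.56) or either 9 h array of the Nupr1 set (-0.36), and was -0.16 without the siRelA mock array. CCN2, LATS2 and WWTR1 differed by -0.29, -0.30 and -0.04, none called. Without the siRelA mock array the CCN1 call was lost (adjusted p = 0.072), and AMOTL2 was lost without the siRelA or the siRelB mock array (up to 0.129). With siRelA 3 of 8 members were called, all higher, beside 21.5% of all tested genes (10.1% higher and 11.4% lower). With siRelB 1 of 8 was called, lower, beside 16.1% (7.58% higher and 8.55% lower). Between siRelB and siRelA 2 of 8 were called, both lower, beside 10.1% (5.46% higher and 4.61% lower), a background that was 2.84% without the siRelB mock array. TEAD1 and AJUBA were not called in any of these comparisons, though TEAD1 with siRelA was with the span curve subtracted (-0.38, limma adjusted p = 0.0331). In the plot of single pairs, the open siRelA points stand above the filled ones for every tested member except WWTR1. All of these rest on the same 2 mock arrays.

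The upstream kinases and regulators of the Hippo pathway were counted from a list of 20 genes, 19 of them tested. In EBSS against mock, 1 was called higher and 12 lower, with a median of -0.32 beside 0.05 over all tested genes, of which 22.6% were higher and 29.3% lower. The lower ones were led by TAOK1 (-1.22), a kinase that activates the Hippo kinases, STRN3 (-1.16), a scaffold of the phosphatase complex that opposes them, and MOB1A (-0.96), the LATS coactivator. LATS1 differed by -0.88, and WTIP, a LATS-binding LIM protein, was higher by 0.48. The list has a median span of 133 kb, and with the span curve subtracted 1 was higher and 6 lower. In that setting 2300 of the 11026 tested genes were higher and 2922 lower, 47.4% in either direction. At 9 h against 0 h, 1 was higher (TAOK1, 0.39) and 2 lower, beside 9.19% and 15.1% of all tested genes. At 3 h 0 were higher and 1 lower, beside 3.27% and 9.07%, and at 6 h 0 were higher and 2 lower, beside 7.65% and 15.7%.

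With siNupr1, where 9.86% of all tested genes were higher and 8.58% lower, 1 of the 19 was higher (MAP4K4, 0.26) and 4 were lower, among them WWC2 (-0.65), which encodes a KIBRA family scaffold, and STK3 (-0.39), which encodes the Hippo kinase MST2. With siRelA, 2 were higher and 2 lower, with MAP4K4 at 0.69 and MOB1A at -0.79, beside 10.1% and 11.4% of all tested genes. With siRelB 1 was higher (AMOTL1, 0.40) and 0 lower, beside 7.58% and 8.55% of all tested genes. With the span curve subtracted the siRelB counts were 0 higher and 2 lower, and those with siRelA 2 higher and 4 lower. Of the 11026 tested genes, 17.6% were then called with siRelB (782 higher and 1156 lower). With siRelA it was 22.7% (1051 higher and 1448 lower).

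Among 6 further TEAD factors and VGLL cofactors, 4 were tested. TEAD3 and TEAD4 were higher in EBSS than in mock by 0.40 each (limma adjusted p of 0.0142 and 0.00405), where TEAD1 was lower, and none of the 4 was called during the Nupr1-set course or with siNupr1. With siRelA, VGLL4, a cofactor that competes with YAP for TEAD, was higher by 0.63 and TEAD4 by 0.54, and with siRelB 0 were called. Of all tested genes, 22.6% were higher in EBSS against mock and 10.1% with siRelA, and 16.1% were called with siRelB. In either direction, 12.3%, 23.4% and 24.3% were called at 3, 6 and 9 h and 18.4% with siNupr1.

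Other published YAP targets were counted from a list of 22 genes, 15 of them tested. They were split in EBSS against mock, 5 higher, among them AXL (0.55), a receptor tyrosine kinase, and 5 lower, led by ARHGAP29 (-0.94) and NT5E (-0.55), an ectonucleotidase, beside 22.6% and 29.3% of all tested genes. With the span curve subtracted 4 were higher and 2 lower, beside 2300 higher and 2922 lower of 11026 tested genes. At 3 h 1 was higher, GADD45A (0.86), a stress-induced growth arrest gene, beside 3.27% higher and 9.07% lower of all tested genes. At 6 h 4 were higher and 2 lower, beside 7.65% and 15.7%, and at 9 h 4 were higher and 0 lower, beside 9.19% and 15.1%. With siNupr1, 1 was higher and 4 lower (GADD45A -0.43, NT5E -0.42 and ARHGAP29 -0.39 among them). With siRelA, 1 was higher, AXL (0.66), and 3 were lower. With siRelB 0 were higher and 5 lower, with NT5E at -0.74 and ARHGAP29 at -0.72. The shares of all tested genes were 9.86% higher and 8.58% lower with siNupr1, 10.1% and 11.4% with siRelA, and 7.58% and 8.55% with siRelB.

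SRF and actin cytoskeleton genes, which are induced by the same cytoskeletal signals as CCN1, gave 5 higher and 2 lower of 12 tested in EBSS against mock, and 2 higher and 0 lower at 3 h, FHL2 (0.59) and TGFB1I1 (0.46). The 7 called in EBSS against mock, of 12, stand beside 51.9% of all tested genes. Of the list, 3 were higher and 0 lower at 6 h, and 2 higher and 1 lower at 9 h. Among all tested genes, 3.27% were higher and 9.07% lower at 3 h. At 6 h these shares were 7.65% and 15.7%, and at 9 h 9.19% and 15.1%. The list gave 4 higher and 2 lower with siNupr1, beside 9.86% and 8.58% of all tested genes. With siRelA it gave 6 higher and 1 lower, led by MYH9 (0.86), beside 10.1% and 11.4%. With siRelB it gave 4 higher and 0 lower, beside 7.58% and 8.55%. Of the 4 other CCN family genes, CCN3 and CCN5 were tested and neither was called in any comparison.

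The members did not vary as 1 group. After each set's mean was removed, CCN1 correlated over the 14 arrays with LATS2 (Pearson r = 0.82), AMOTL2 (0.82) and CCN2 (0.77). It did not follow YAP1 (r = 0.00) and went against TEAD1 (r = -0.45), as did CCN2 (r = -0.67). YAP1, TEAD1 and WWTR1 correlated with each other at 0.45 to 0.48. These are descriptions over arrays that share starvation, siRNAs and scaling. The tested genes most like CCN1 were FOS (r = 0.95), ZFP36L1 (0.94), FOSL1 (0.94), VPS37D (0.90) and EGR3 (0.89), and FOS, FOSL1 and EGR3 are growth factor-induced genes. The genes most like CCN2 were NKX2-8, HCN2, C20orf144, SHISA2 and ZNF579, all at 0.93. Those most like YAP1 were ATP2B4 (0.95), IGF2BP2 (0.91), FCHSD2 (0.91), ZC3HAV1L (0.91) and NLK (0.90).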

How the data were processed

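Gene expression was measured on 14 arrays, 6 in the NF-kB set and 8 in the Nupr1 set, with 1 array per siRNA and condition. The deposited values are log2 values made by the authors with RMA, per the submitters' processing notes. RMA corrects background, quantile normalizes and summarizes probes, which takes out most uniform shifts between arrays. Array medians of the deposited values still ran from 5.67 to 5.84, and median centring moved some calls, as given below. The notes also name limma. Which RMA version, annotation and genome build were used is not given in the sources used here.

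Of 28869 clusters, 19310 carried 1 gene symbol, which gave 18377 genes, each by its brightest cluster. Genes in the lowest 40% by mean (5.805 on the log2 scale) were left out, and 11026 were tested. In R 4.3.3 with limma 3.58.1 and data.table (version 1.17.8), 1 linear model of set, siRNA and condition (9 columns, 5 residual degrees of freedom, 19.6 after moderation) was fitted with lmFit and eBayes with an intensity trend. Each p was adjusted by Benjamini-Hochberg over the tested genes. With 1 array per combination, the residual spread includes noise and whatever interaction siRNA and condition have, and the added terms for siRelA and siRelB by medium take their spread from the Nupr1 set. The number of arrays limits precision. The fit was run on simulated data in which 200 of 11026 genes changed 1.5-fold, with independent noise and no interaction of siRNA and condition. It recovered 73% to 98.5% of these by comparison, with 5 to 16 false calls. Far more genes were called on these arrays, with 51.9% in EBSS against mock, so the simulation cannot vouch for those calls. The members, lists and comparisons were chosen with earlier results of these data known. The rule for named genes takes the members, and at most 3 genes of a list by size among those called, apart from LATS1 and WTIP in EBSS against mock and MAP4K4 and ARHGAP29 with siNupr1, chosen after their values were seen. The alternatives were quantile normalization, median centring, no filter, no trend, array weights, the mean over a gene's clusters, each set alone, the span curve, leaving out 1 array, and, added after seeing the data, leaving out the doubtful arrays.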

Additional observations from a re-analysis of the deposited data

Results flagged for a closer look

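TEAD1 stood out because its 9 h starvation difference was not the same in both sets. The NF-kB set gave -0.83 ± 0.11 for EBSS against mock and the Nupr1 set 0.22 ± 0.13 for 9 h against 0 h, and limma's contrast of these gave -1.04 ± 0.17 (adjusted p = 0.00016). All 3 pairs of the first were lower in EBSS and both pairs of the second were higher at 9 h. With each array left out in turn the difference ran from -1.21 to -0.91, and its adjusted p was at most 0.00201.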

How the results depend on the processing

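Over 112 member values, 9 alternative settings left 886 on the same side of the threshold, brought 14 past it and took 11 below it. Each set alone and the fit without the doubtful arrays covered only some of the comparisons, so not every value was refitted in every setting. Of the 886, 14 were uncalled values that changed sign. WWTR1 in EBSS against mock turned from -0.21 to 0.046 with the span curve subtracted. Members called at 6 h numbered 2 instead of 1 with quantile normalization or median centring. At 9 h 1 was called instead of 2 with no filter, no trend or array weights. With siNupr1 2 were called with quantile normalization, 3 with array weights and 2 without the doubtful arrays, against 1, and CCN1 was among them in the last 2 settings. With siRelB 0 were called with no filter, against 1. Leaving out 1 array gave 1 to 3 members at 3 h, 0 to 3 at 6 h, 1 to 3 at 9 h, 0 to 1 for 9 h against 3 h, 5 to 6 for EBSS against mock, 1 to 2 for the set difference, 0 to 2 for siNupr1, 0 to 3 for siRelA, 0 to 1 for siRelB and 0 to 3 for siRelB against siRelA. Over the same fits, the share of all tested genes called ran from 36.9% to 56.7% in EBSS against mock and from 7.62% to 21.8% with siNupr1. At 3, 6 and 9 h it ran from 3.23% to 15.5%, 7.46% to 27.1% and 14.9% to 24.5%. It ran from 1.06% to 9.18% for 9 h against 3 h and from 15.8% to 27.2% for the set difference. The range was 10.2% to 24.7% with siRelA, 6.9% to 19.5% with siRelB and 2.84% to 13.1% for siRelB against siRelA. Among the member values, 39 calls were lost and 14 gained in these fits. When 1 array was left out, uncalled values changed sign in 51 cases. The cause was not tested.

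Over all tested genes, array weights gave 2173 calls at 3 h (1361 otherwise), 1517 at 9 h (2675), 414 for 9 h against 3 h (809), 3271 for siNupr1 (2033), 39 (4) and 6 (0) for the medium terms of siRelA and siRelB and 5 (0) for the starved term of siNupr1. Without the doubtful arrays siNupr1 called 865. Each set alone called 841 for the slope (0) and 2 for the starved term. The siRelA medium term called 2 with the span curve and 0 with no trend. Quantile normalization raised the share of calls that were higher from 43.5% to 56.3% in EBSS against mock, from 26.5% to 44.7% at 3 h and from 32.7% to 45.7% at 6 h. Median centring moved it from 37.9% to 54.3% at 9 h and from 33.1% to 20.6% for the set difference. The labels carry no replicate numbers to use as a block. The pairs named in the report are arrays that share an siRNA, a medium or a time, and the fit of siRNA and condition compares within them.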

Other observations

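ARHGAP29, a published YAP target, had a set difference larger than that of TEAD1. Its difference was -0.94 ± 0.10 in EBSS against mock, and it was higher at 9 h than at 0 h by 0.90 ± 0.13, and the difference between the sets was -1.84 ± 0.16 (limma adjusted p = 5.21e-07). GADD45A, a stress-induced growth arrest gene, was higher in both, by 0.37 ± 0.10 in EBSS against mock and by 1.33 ± 0.12 at 9 h, with a difference of -0.97 ± 0.15 (adjusted p = 0.00011). The Hippo kinase TAOK1 fell by 1.22 ± 0.10 in EBSS against mock, was higher at 9 h by 0.39 ± 0.12, and differed between the sets by -1.61 ± 0.16 (limma adjusted p = 1.03e-06). These genes were chosen after their values were seen.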
